A study of Drosophila melanogaster with 28 samples.

Results

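The 9 genes described here form the core of the Drosophila JAK-STAT pathway: the ligands upd1, upd2 and upd3, the receptor dome, the kinase hop, the transcription factor Stat92E, and the inhibitors or targets Socs36E, Ptp61F and ken. They were chosen by name, as the pathway that the Upd transgene of this study drives, and were found in the annotation of Release 6 of the genome by gene symbol. They are 9 of 13968 protein-coding genes, and they have 15 of 18945 start sites, where start sites of a gene within 100 bp of each other were merged. A total of 5 members lie on the X chromosome, of which male flies carry a single copy.

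An Upd ligand binds the receptor Dome, which brings the Janus kinase Hop to the membrane; Hop phosphorylates Stat92E, which then enters the nucleus and binds DNA with the core letters TTCNNNGAA. Socs36E is a target of the pathway that feeds back to damp it, Ptp61F is a phosphatase that acts on Hop and Stat92E, and Ken is a repressor that blocks part of the Stat92E targets. In the testis the hub, a cluster of somatic cells at the tip, secretes Upd, which keeps cyst stem cells in self-renewal and helps germline stem cells to stay at the hub. Flies that express Upd in a whole lineage form tumours of stem-cell-like cells.

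The study profiled histone marks in testis tumours made by Upd, to compare chromatin between the germline and the cyst lineage. Germline tumours (y[1] w[1118] P{hs70FLP}, with P{w[+mC]=GAL4::VP16-nanos.UTR} over UAS-Upd) are labelled GSC-like chromatin, and cyst tumours (w[1118], with traffic Jam-GAL4 over UAS-Upd) are labelled CySC-like chromatin; only the germline flies carry the hs70FLP insertion. Both groups carry UAS-Upd and 1 copy of UAS-FRT-H3-GFP-FRT-H3-mKO, and were raised at 25 C, so every sample had forced Upd and no group without it is analysed here. Because the same driver makes the ligand and the tagged histone, an antibody to GFP guided a protein A-MNase fusion to the chromatin of driver-expressing cells; a portion of the released chromatin was set aside (input) and the remainder went into immunoprecipitation (IP) for 1 mark. H3K4me3, a mark of active start sites, and H3K9me3, a mark of heterochromatin, had 2 preparations per tumour type, and H3K27me3, the Polycomb mark, had 3.

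The 28 libraries held from 942943 fragments (the H3K27me3 IP of germline preparation 1) to 18199704 fragments. Signal is scaled so that the median over the autosomes is 1 in each library, so a genome-wide difference in a mark is not visible, and in bulk material fewer cells with a mark and less of it per cell cannot be told apart. The H3K4me3 libraries of the 2 tumour types were on different flow cells, so for that mark the tumour types and their flow cells cannot be told apart. Nothing in the labels says whether preparations came from separate cohorts of flies, so the p-values measure the spread between these preparations. As a check of the labels, H3K4me3 was read at the start sites of marker genes. At 8 start sites of 6 germline markers (vas, nanos, aub, AGO3, zpg and bam), log2 IP over input was lower in germline than in cyst tumours. This held at each of the 8, by 0.03 to 0.56, with 0 differences called. The median difference was -0.28, where that of all sites was -0.06. In germline tumours 1 of the 8 was called above and 3 below input, where 3594 and 789 of 18634 sites were. In cyst tumours 1 was called above and 1 below, where 4785 and 627 of all sites were. Over 11 start sites of 6 cyst markers (tj, zfh1, eya, Six4, so and chinmo), log2 IP over input was higher in germline tumours at 5, with 0 differences called. H3K4me3 at these markers therefore did not separate the tumour types the way their labels would, and the names germline and cyst are used below as the labels give them.

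The letters that Stat92E recognises were searched on both strands of each member, because they show where the pathway could act on its own genes. The 5 matches near the Socs36E start and the matches at the dome and hop starts are shown 5′ to 3′ on the strand of the gene, with the 9-base match in capitals and 10 bases on each side; positions count from the start site, and all are Release 6.
Socs36E +62, in a UTR exon, chr2L:18152347-18152355: acagatacttTTCGGGGAAgcgatacttc
Socs36E +426, in an intron, chr2L:18151983-18151991: gtaattggaaTTCCCTGAAccgctcgctg
Socs36E +540, in an intron, chr2L:18151869-18151877: aggcgcaataTTCCGCGAActggacgtaa
Socs36E +660, in an intron, chr2L:18151749-18151757: cgatacgaaaTTCCCAGAAacgcattttc
Socs36E +693, in an intron, chr2L:18151716-18151724: ttagaccgatTTCTGAGAAgtgacagaca
dome +264, in a UTR exon, chrX:19683246-19683254: taagagccacTTCCAGGAAcgcagcgtat
dome +290, in a UTR exon, chrX:19683220-19683228: tataaacggtTTCCGAGAActggccacca
hop +36, in a UTR exon, chrX:11368054-11368062: tccgatgaatTTCACTGAAattcgtggct

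The letters TTCNNNGAA occurred in 26.9% of all 18945 windows of 500 bp on each side of a start site, so a match at dome or hop alone is common. Socs36E stood high by density over the whole gene: 20 matches in 13.7 kb are 1.46 per kb, above 99.8% of 7436 genes, whose median was 0.284 per kb. The receptor gene dome held 5 matches, at 0.670 per kb above 91.5% of those genes, and Stat92E held 9. The ligand genes upd1, upd2 and upd3 held 0, 1 and 2, and hop and ken held 2 each. Ptp61F held 50 in 133 kb, or 0.377 per kb. The form with a spacer of 4 bases between TTC and GAA was found in 28.1% of windows, and its match at dome lies upstream of the start.
dome, from -113 to -84, chrX:19683602-19683631: gaattcgaatTTCGGCTGAAatgcgatgtt
The ken start window held 3 matches to another motif, TATCGATA (the DNA replication-related element), which 10.9% of windows hold. The start site of Ptp61F that carried the most H3K4me3 in cyst tumours also has this motif upstream.
Ptp61F, upstream of start site 3, chr3L:1350769-1350798: gatggtgaaaaTATCGATAgacgtaactaa
A match describes letters in a window and is no evidence of binding.

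H3K4me3 was called above input at start sites of the receptor, the kinase and Ptp61F in both tumour types, and in cyst tumours also at 1 of 3 upd1 sites, 1 of 2 Stat92E sites and the Socs36E site. In germline tumours that is no larger a share of sites than in the genome. A site was called when limma gave an adjusted p under 0.05 over all sites and a fold over 1.5. In germline tumours 3 of 15 member sites were called, in 3 of 9 genes (dome, hop and Ptp61F), against a background of 19.3% of 18634 sites tested. In cyst tumours 7 of 15 sites in 6 of 9 genes were called, against a background of 25.7%. The median log2 IP over input of the members was 0.53 in germline and 0.55 in cyst tumours, where that of all sites was 0.20 and 0.24. Leaving out a preparation lowered these counts. The germline count fell without germline preparation 1 or germline preparation 2, and the cyst count without cyst preparation 1. Calls over all sites fell in the same fits as well. Scaling moved the split of all calls: 3594 sites were above and 789 below input in germline tumours, and 4785 and 627 in cyst tumours, where TMM gave 1914 and 1959, and 2823 and 1794. Between the tumour types 0 member sites were called, as were 0% of all sites. Of the 15 sites 0 had an unadjusted p under 0.05 for that difference, and edgeR called 0.

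**Figure D1:**
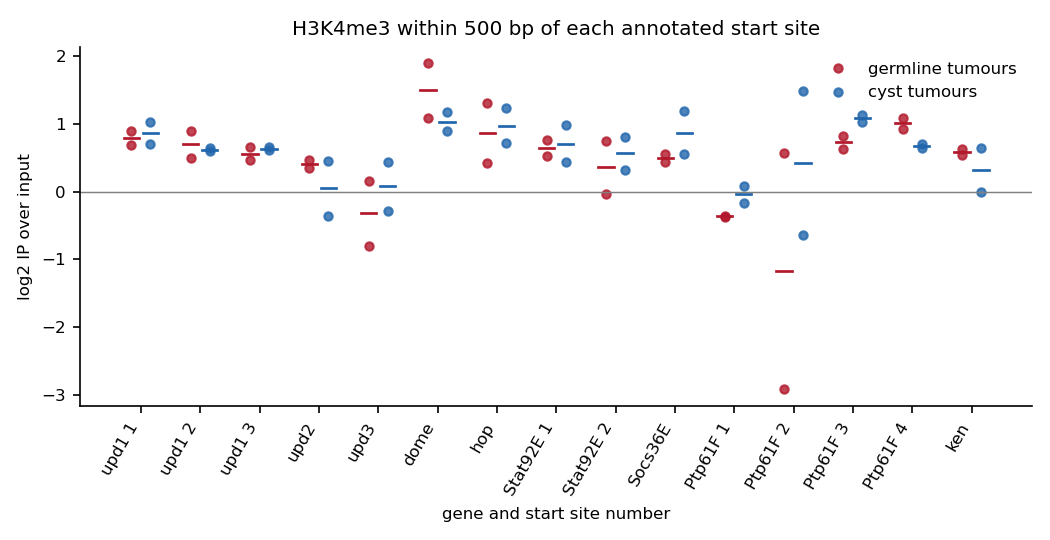
H3K4me3 at the 15 start sites of the 9 genes. The axis gives log2 IP over input within 500 bp of the start site; dots are single preparations (2 per tumour type) and bars are their means. The dome site stands highest in germline tumours, with preparations at 1.89 and 1.09, and the second Ptp61F site, which has the widest spread, holds 0 to 14 IP fragments per preparation.

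The ligand genes lie within 68.6 kb of each other on the X: upd2 (FBgn0030904, X:18240654-18243284, minus strand), upd3 (FBgn0053542, X:18277233-18284596, plus strand) and upd1 (FBgn0004956, X:18305354-18309291, minus strand). In Drosophila upd1 is the ligand of the testis hub, and upd2 and upd3 also act in the fat body, gut and blood cells. H3K4me3 at the first upd1 start site was 0.89 and 0.68 in the germline preparations and 0.71 and 1.02 in the cyst preparations, as log2 IP over input. The 2 tumour types overlapped there, and the counts behind these values were thin, from 14 to 49 input fragments. By limma the enrichment was 0.76 ± 0.25 (SE) in cyst tumours, adjusted p = 0.0247, and 0.63 ± 0.25 in germline tumours, adjusted p = 0.0709. The cyst call held in 4 of 9 alternatives, with an adjusted p of up to 0.219, and was lost without either cyst preparation. At upd2 the germline preparations gave 0.47 and 0.34 and the cyst preparations -0.36 and 0.46, and at upd3 the values were -0.80 and 0.16 against 0.44 and -0.28. Neither gene was called in either tumour type, and the preparations of upd3 lay on both sides of 0.

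H3K9me3 around the upd1 and upd2 start sites was above input in cyst tumours. Called above input in cyst tumours were 3 member sites, against a background of 0.343% of 18659 sites: the first upd1 site (0.63, adjusted p = 0.0117 by limma), the second upd1 site (0.67, adjusted p = 0.008) and the upd2 site (0.72, adjusted p = 0.00589). The 2 upd1 sites lie 162 bp apart, so their windows share most of their sequence and are not separate evidence. That background depends on the scaling: 7.25% of sites were above input with TMM and 7.62% with edgeR, since the median of all sites in cyst tumours, -0.30 as deposited, became 0.01 with TMM. The upd1 calls held in 6 of 9 alternatives each and the upd2 call in 7; each was lost with a pseudocount of 0.5 and without cyst preparation 1, and those of upd1 also without cyst preparation 2. The first upd1 site had values of 0.34 and 0.83 in germline and 0.85 and 0.68 in cyst preparations. The upd2 site had 0.39 and -0.25 in germline and 1.25 and 0.50 in cyst preparations. The upd2 values did not overlap between the tumour types, while those of the first upd1 site did. How many of all sites separate as upd2 does was not counted. Over gene bodies no member was called at a fold over 1.5, where 1.93% of 13705 genes were called in germline and 4.54% in cyst tumours. The closest was upd2, at 0.58 ± 0.09 in cyst tumours (adjusted p = 0.00914 by limma), a fold just under the threshold; its preparations were 0.76 and 0.66 in cyst and 0.28 and 0.32 in germline tumours. The body of upd1 had 0.51 in cyst (adjusted p = 0.0218) and 0.45 in germline tumours (adjusted p = 0.0408), below the fold threshold. With edgeR, or with TMM scaling in limma, the body of upd1 was called in both tumour types and that of upd2 in cyst tumours. Of 13705 bodies, TMM called 79 above input in germline and 210 in cyst tumours, and edgeR 97 and 220. The main fit called 9 and 53. At an unadjusted p under 0.05, 4 of 9 member bodies passed in germline and 6 in cyst tumours, where 33.3% and 36.4% of all bodies did. The windows of these genes were rich in G and C: 54.6% at the first upd1 site and 56.1% at upd2, above 99.2% and 99.7% of all windows, whose median was 42.5%. The part of base composition in these values was not tested.

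H3K27me3 was not called at any ligand gene. At the first upd1 start site log2 IP over input was 2.07, 2.00 and 0.87 in the germline preparations, against 0.35, 0.94 and 0.43 in the cyst preparations. The input counts were as low as 3 fragments, the limma estimate in germline tumours was 1.34 ± 0.43 with an adjusted p of 0.224, and the tumour types overlapped little, with 0.87 in germline below 0.94 in cyst. At upd2 the germline values were 2.46, 0.78 and 0.28 and the cyst values 0.69, 1.22 and 0.91. At upd3 they were 1.14, 0.43 and 0.24 against 0.10, 0.43 and 0.38. Among member bodies 0 were called in either tumour type and in the difference, where the background was 0% of 13622 bodies in germline tumours, 0.0514% in cyst tumours and 0% for the difference. The largest value of a ligand was that of upd2 in germline tumours, at 0.50 ± 0.20, adjusted p = 0.249 by limma. At an unadjusted p under 0.05, 1 of 9 bodies passed in each tumour type and 0 in the difference, where 19.4%, 16.1% and 3.13% of all bodies did, and edgeR called 0.

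Over the whole 68.6 kb from upd2 to upd1, log2 IP over input of H3K27me3 was 0.76, 0.10 and 0.23 in germline and 0.26, 0.38 and 0.28 in cyst preparations. The means were 0.37 ± 0.35 and 0.30 ± 0.06 (SD, n = 3 each), a difference of 0.06 that was within the spread (exact two-sided permutation p = 1). Germline preparation 1, the library with the fewest fragments, set the sign: without it the difference was -0.14, and without germline preparation 3, on 1 flow cell, it was 0.13. Relative to the median X-linked gene of the same preparation the values were 0.24 ± 0.07 and 0.06 ± 0.05, a difference of 0.18 (exact permutation test, p = 0.1, the lowest value that 3 against 3 can give). H3K9me3 over the same span was 0.29 and 0.27 in germline and 0.47 and 0.36 in cyst preparations, and H3K4me3 was 0.32 and 0.19 against 0.45 and 0.34. The tumour types did not overlap for these 2 marks, with cyst higher by 0.14 for each. The exact permutation p was 0.333, the smallest that 2 against 2 allows. How many other spans separate in this way was not counted. Relative to the median X-linked gene the H3K9me3 difference was -0.11, while that of H3K4me3 turned to 0.0197 (-0.11 in germline and -0.13 in cyst tumours, exact permutation p = 1).

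**Figure D2:**
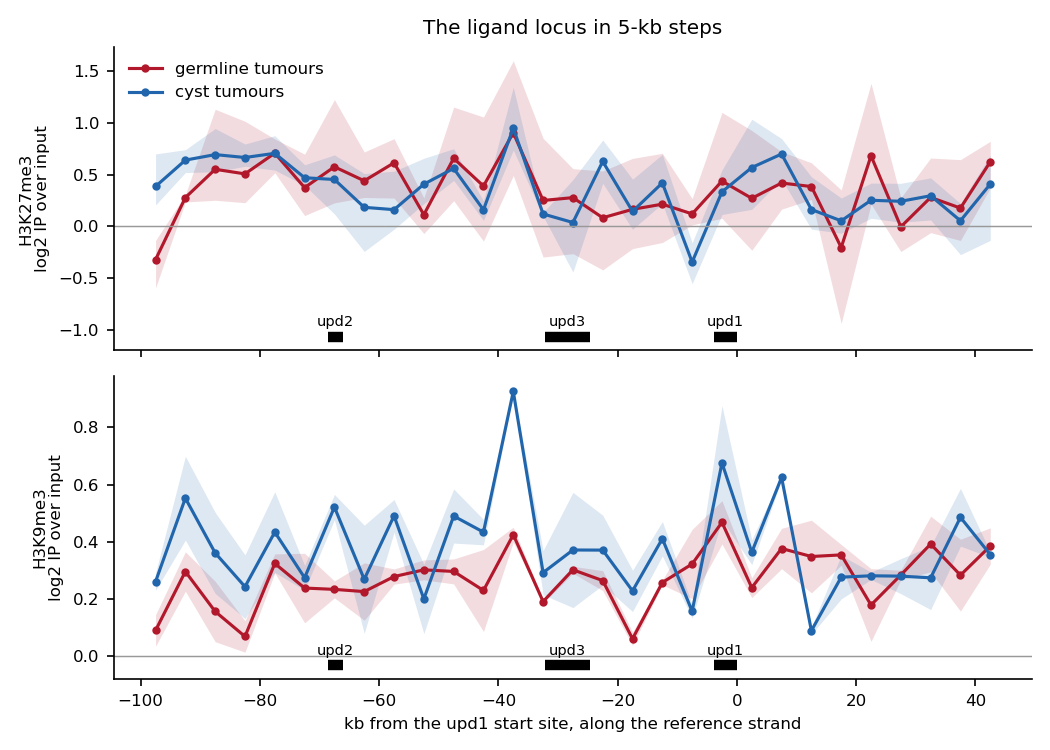
H3K27me3 and H3K9me3 along the ligand genes in 5-kb steps. The horizontal axis is the distance from the upd1 start in kb, the vertical axis log2 IP over input; lines are means of the 2 or 3 preparations of a tumour type and shading runs from the lowest to the highest. The germline H3K27me3 shading is the widest, where preparations over the whole locus ranged from 0.10 to 0.76.

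Extra copies of upd1 sequence from UAS-Upd should appear as coverage in the input libraries, which carry DNA of both the endogenous gene and the transgene. Exon signal over intron signal at upd1 was 0.42 ± 0.27 on the log2 scale in germline inputs (SD, n = 7; lowest 0.13, highest 0.87) and 0.44 ± 0.52 in cyst inputs (n = 7; lowest -0.30, highest 1.19). The ratio was above 0 in 7 of 7 germline and 6 of 7 cyst inputs, and the tumour types overlapped almost wholly, with a difference of -0.02 (exact two-sided permutation p = 0.925). These ratios exceed those of 90.9% of 5380 genes in germline and 92.0% in cyst inputs, where the medians were -0.02 and -0.10.

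The excess was not spread over the exons. Exon 4, the last exon, had a mean signal of 0.766 ± 0.127 in germline and 0.783 ± 0.186 in cyst inputs (SD, n = 7 each). Exon 1 had 0.341 and 0.386, and exon 2 had 0.401 and 0.392, close to 0.448 and 0.362 in intron 1. Exon 3, which is only 150 bp long, had 0.640 ± 0.128 in germline and 0.366 ± 0.133 in cyst inputs. The 3′ UTR, the end of exon 4, exceeded the coding exons by 1.07 ± 0.50 in germline and 1.39 ± 0.47 in cyst inputs (exact permutation p of the difference = 0.229), more than 85.1% and 83.1% of 3293 genes. The coding exons were at -0.13 ± 0.46 and -0.32 ± 0.44 relative to 5 kb on each side of the gene. The same ratio was -0.69 and -1.21 for upd2, -0.38 and -0.79 for upd3 and -0.44 and -0.46 for nanos. The labels name no transgene of the coding sequence of these genes. This ratio was not computed for the other members. Among those, mean coding-exon signal was above the flanks at Ptp61F, at 1.03 and 1.24 against 0.944 and 1.05. It was below the flanks at hop (0.555 and 0.686 against 0.616 and 0.814), dome, Stat92E, Socs36E and ken. Coding exons over introns at upd1 were 0.21 ± 0.49 and 0.04 ± 0.31, above 84.6% and 83.1% of 5087 genes. The coding exons of upd1 hold 61.6% G and C, its introns 36.7%, its 3′ UTR 41.5% and its flanks 44.5%, and the part of base composition in these ratios was not tested. Whether transgene copies add to the coverage cannot be read from these values. For nanos, whose UTR is part of the germline driver's name, the 3′ UTR over coding ratio was 0.95 ± 0.60 in germline and 0.94 ± 0.32 in cyst inputs (difference 0.01, exact permutation p = 0.955).

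**Figure D3:**
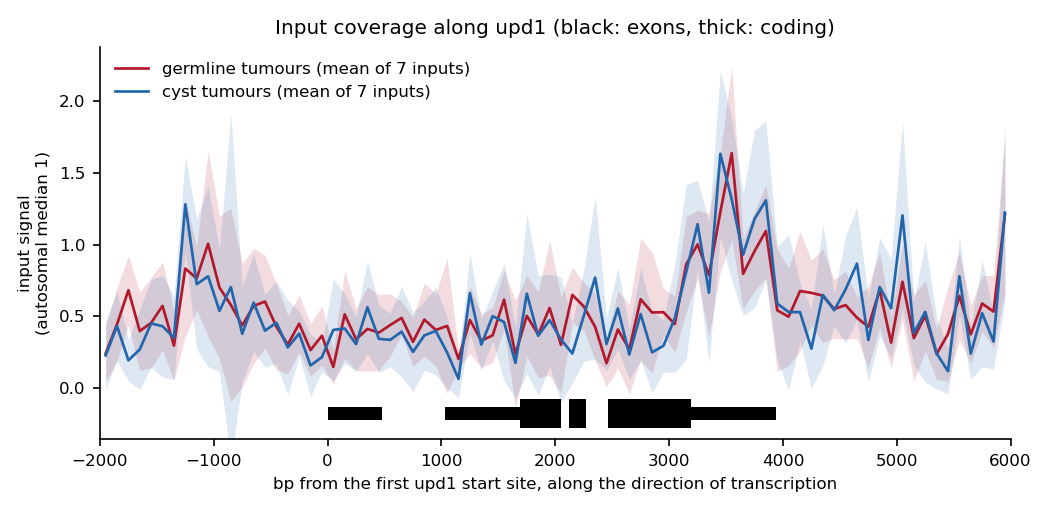
Input signal (vertical axis, autosomal median 1) along upd1 and its flanks, by distance in bp from the first start site. Lines are means of 7 inputs per tumour type, shading is 1 SD, and black bars are exons with coding sequence thick; the last exon, at 0.766 in germline and 0.783 in cyst inputs, stands above the first, at 0.341 and 0.386.

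The receptor gene dome (FBgn0043903, X:19676061-19683518, minus strand) carried the strongest H3K4me3 of the 9 genes in germline tumours. Log2 IP over input was 1.89 and 1.09 in germline and 1.17 and 0.89 in cyst preparations. By limma that was 1.32 ± 0.21 in germline (fold 2.49, adjusted p = 0.000158) and 0.99 ± 0.21 in cyst tumours (fold 1.98, adjusted p = 0.000943). The difference of 0.33 ± 0.30 was within the spread (adjusted p = 0.771 by limma), and the preparations overlapped. H3K9me3 was depleted around the same start: -1.46 and -0.94 in germline preparations, from 33 and 39 IP fragments, and -0.94 and -1.53 in cyst preparations. H3K27me3 there was -1.07, -1.61 and 0.53 in germline and -1.57, -1.91 and -1.17 in cyst preparations. The third germline value lies apart from the other 5, and that preparation alone was on a flow cell of its own. In cyst tumours the H3K27me3 estimate of -1.43 was not called (adjusted p = 0.103).

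The kinase gene hop (FBgn0004864, X:11360930-11368098, minus strand) had H3K4me3 values of 0.43 and 1.31 in germline and 1.23 and 0.71 in cyst preparations. Both tumour types were called, at 0.78 ± 0.23 (adjusted p = 0.0165) and 0.94 ± 0.23 (adjusted p = 0.0034 by limma), and they overlapped. Over the hop body H3K27me3 was 0.27, -0.39 and 0.01 in germline preparations and 0.37, 0.79 and 0.54 in cyst preparations. Every cyst value was above every germline value, and how many of all bodies separate in this way was not counted. The cyst enrichment of 0.51 had an adjusted p of 0.23 by limma and the difference was not called. At its start site, in contrast, H3K27me3 was at -0.62, -0.98 and -1.07 in cyst preparations.

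Stat92E (FBgn0016917, 3R:20535323-20552311, minus strand), the only STAT gene of the fly, has start sites at 20552311 and 20551107. H3K4me3 at the first was 0.76 and 0.52 in germline and 0.98 and 0.43 in cyst preparations, called in cyst tumours (0.69 ± 0.23, adjusted p = 0.0235) and just short of the threshold in germline tumours (0.58, adjusted p = 0.0632 by limma). The cyst call held in 4 of 9 alternatives, with an adjusted p of up to 0.279, and was lost without cyst preparation 1 and without either germline preparation. At the second site the values were -0.03 and 0.74 against 0.81 and 0.32, and neither was called. H3K9me3 at the second site was called below input in both tumour types, at -0.60 in germline and -0.94 in cyst tumours. The germline call held in 3 of 9 alternatives, with an adjusted p of up to 0.643, and the cyst call in 9 of 9. H3K27me3 at that site was -1.62, -0.79 and -1.11 in cyst preparations, with an adjusted p of 0.0641.

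H3K9me3 below input was called at start sites of dome, hop, Stat92E and Ptp61F in both tumour types, and of ken in cyst tumours. It was called at 4 of 15 member sites in germline tumours, in dome (-1.06, adjusted p = 0.00119), hop (-0.60, adjusted p = 0.0301), Stat92E (-0.60, adjusted p = 0.0207) and Ptp61F (-0.99, adjusted p = 0.00111), all by limma. The background was 6.18% of 18659 sites, and with the replicate block hop lost its germline call (adjusted p = 0.0651). The germline calls of dome and Ptp61F held in 8 of 9 alternatives and that of hop in 2. In cyst tumours 6 sites were called below input, in dome (-1.13), hop (-0.60), both Stat92E sites (-0.67 and -0.94), Ptp61F (-0.93) and ken (-0.94), against a background of 26.6%. The split of all sites, 64 above and 4969 below input in cyst tumours and 38 and 1154 in germline tumours, was 1353 and 1916, and 250 and 722, with TMM. The germline count fell without germline preparation 1, cyst preparation 1 or cyst preparation 2, and so did calls over all sites. The cyst count of 7 genes, in either direction, fell without either cyst preparation, as did calls over all sites.

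**Figure D4:**
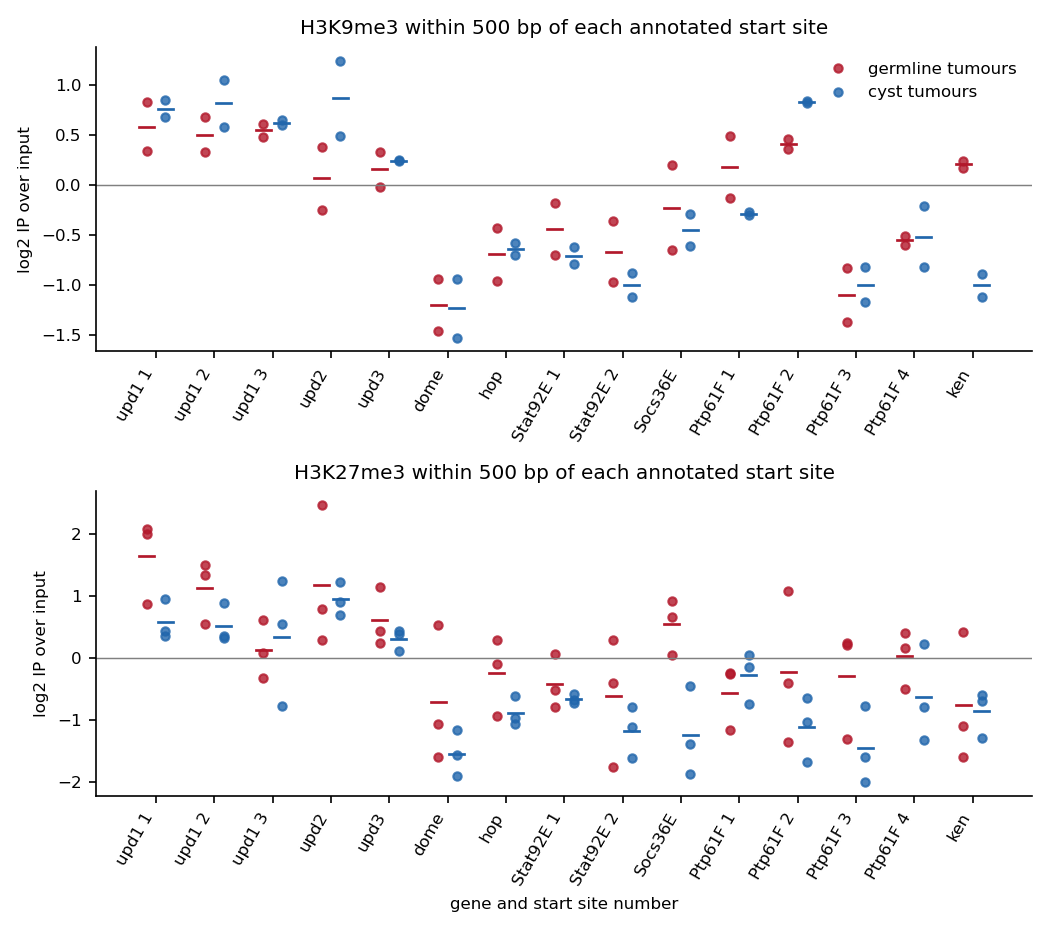
H3K9me3 and H3K27me3 at the 15 start sites. The axis is log2 IP over input within 500 bp of the start site; dots are single preparations (2 per tumour type for H3K9me3, 3 for H3K27me3) and bars are their means. For H3K9me3 the upd1 and upd2 sites lie above 0 in cyst tumours and dome, hop and Stat92E below; at ken the germline dots, 0.17 and 0.25, lie apart from the cyst dots, -0.89 and -1.12.

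The repressor gene ken (FBgn0011236, chromosome arm 2R, plus strand) had the only member difference between tumour types that was called for any mark. H3K9me3 at its start was 0.17 and 0.25 in germline preparations, from 101 and 102 IP fragments, and -0.89 and -1.12 in cyst preparations, from 38 and 65. The 4 values did not overlap, and germline tumours were higher by 1.13 ± 0.20 (fold 2.19, adjusted p = 0.0103 by limma), where 3.3% of 18659 sites were called in that direction. Over 9 alternatives the adjusted p ranged from 0.00188 to 0.347; the call was lost without germline preparation 2, cyst preparation 1 or cyst preparation 2, each of which left 0 sites called in the genome. Input signal at the same window was lower in germline tumours, with a lowest, median and highest of 1.01, 1.20 and 1.39 against 1.45, 1.63 and 2.15 in 7 inputs each; its part in the ratio was not tested. Over the body of ken the H3K9me3 difference was 0.22 and was not called (adjusted p = 0.574). H3K4me3 at ken was 0.53 and 0.63 in germline and 0.64 and -0.0045 in cyst preparations, not called in either. At H3K27me3 ken had -1.10, -1.61 and 0.41 against -1.30, -0.69 and -0.60.

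Socs36E (FBgn0041184, 2L:18138675-18152417, minus strand), the feedback inhibitor, was called for H3K4me3 in cyst tumours and not in germline tumours, and the difference between them was not called. Its start had 0.43 and 0.56 in germline and 1.18 and 0.55 in cyst preparations. The cyst enrichment was 0.82 ± 0.23 (fold 1.77, adjusted p = 0.00745 by limma), the germline one was 0.43 (adjusted p = 0.173), and the difference of -0.40 had an adjusted p of 0.732.

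H3K27me3 at the Socs36E start separated the preparations of the 2 tumour types by the widest margin among the members. Log2 IP over input was 0.65, 0.05 and 0.91 in germline preparations, from 10, 20 and 200 IP fragments over 48, 24 and 110 input fragments. It was -1.88, -1.40 and -0.46 in cyst preparations, from 18, 8 and 17 over 49, 36 and 35. All 3 germline values were above all 3 cyst values, which held at 8.29% of 18607 start sites. By limma germline tumours were higher by 1.63 ± 0.47 (fold 3.09), with an unadjusted p of 0.00337 and an adjusted p of 0.96, so the site was not called. The mean ratios differed by 1.78, more than at 99.9% of the 18607 sites, whose median was 0.18. Under the alternatives the limma difference stayed between 1.16 and 1.99, with adjusted p from 0.244 to 1.00; without germline preparation 3, which leaves 1 flow cell, it was 1.43. At the 15 member start sites 0 were called for H3K27me3 in germline tumours (background 0%), in cyst tumours (0.876%) and in the difference (0%). At an unadjusted p under 0.05, 4, 8 and 1 of the 15 passed, the 1 being Socs36E, where 18.1%, 21.5% and 3.86% of all sites did, and edgeR called 0, 1 and 0 genes. With input and IP of 1 preparation paired as a block, limma called 3 genes below input in cyst tumours: Socs36E (-1.17, adjusted p = 0.0483), dome (-1.43, adjusted p = 0.0483) and Ptp61F (-1.39, adjusted p = 0.0313), where 3.84% of all sites were called below input with that block.

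H3K27me3 was then read around the STAT motifs of the gene. In 685 bp around the 5 matches within 1 kb of the start, shown above, H3K27me3 was 0.96, -0.05 and 1.14 in germline preparations and -2.03, -1.49 and -3.00 in cyst preparations. The groups did not overlap, and how many other windows of this size separate in this way was not counted. The means were 0.68 ± 0.64 and -2.17 ± 0.77 (SD, n = 3 each), a difference of 2.86. The exact two-sided permutation test gave p = 0.1, and 3 against 3 cannot go below that. The cyst values rest on 11, 7 and 2 IP fragments over 34 input fragments each. The germline values rest on 9, 10 and 171 IP fragments over 35, 13 and 80 input fragments. Signal of these inputs, by which the ratios divide, was 1.05, 0.597 and 1.04 in germline and 1.89, 1.49 and 1.49 in cyst preparations. Those inputs did not overlap either, and their part in the difference was not tested. Without germline preparation 3, on 1 flow cell, the difference was 2.63. Around the other 15 matches in the gene the means were -0.36 and -0.37, a difference of 0.01 (exact permutation p = 0.9). H3K4me3 around the 5 near matches was 0.66 in germline and 0.64 in cyst tumours, and H3K9me3 was -0.52 and -0.70. The split at 1 kb was made after the values were seen. Part of the near windows lies within 500 bp of the start, in the window read above, so they are not separate evidence. Sequence near the start without a match was not tested separately. Input signal around the 5 near matches was 0.950 ± 0.217 in germline and 1.40 ± 0.333 in cyst inputs (SD, n = 7 each, exact permutation p = 0.0122). That is a log2 difference of -0.51, and within flow cells it was -0.57 (exact permutation p = 0.0333). Relative to the rest of the gene the input difference was -0.27 (exact permutation p = 0.171).

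**Figure D5:**
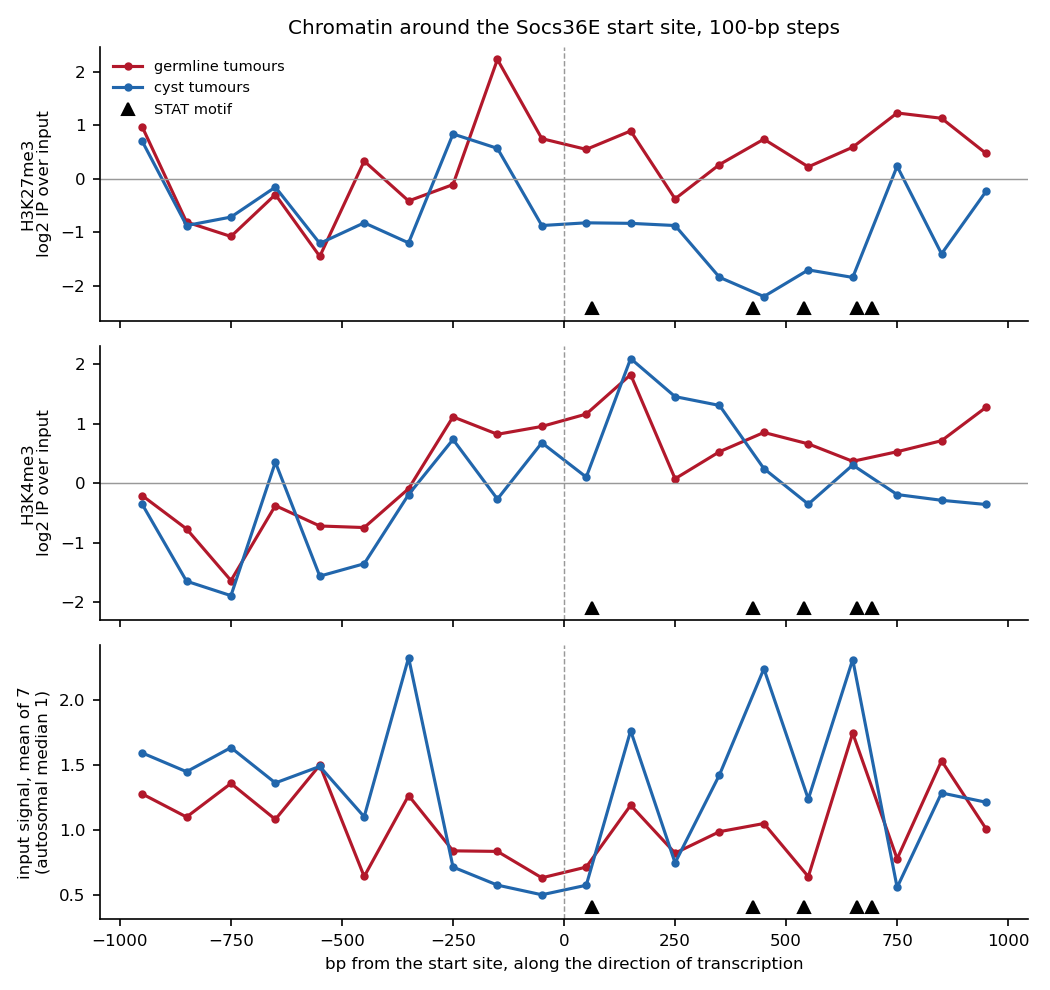
The Socs36E start in steps, with distance from the start in bp on the horizontal axis. The panels show log2 IP over input of H3K27me3 and H3K4me3 and the input signal (mean of 7 inputs per tumour type); triangles mark TTCNNNGAA. Germline H3K27me3 runs above cyst around the triangles within 1 kb of the start, where the means were 0.68 and -2.17.

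Ptp61F (FBgn0267487, 3L:1342493-1475257, minus strand) spans 133 kb and has 4 start sites, at 1475257, 1424979, 1350599 and 1349542, and H3K4me3 sat at the downstream ones. At the third site it was 0.63 and 0.81 in germline and 1.03 and 1.13 in cyst preparations. These values did not overlap, and how many of all sites separate in this way was not counted. By limma H3K4me3 was called there in cyst tumours (1.06 ± 0.27, adjusted p = 0.00378) and not in germline tumours (0.67, adjusted p = 0.0647). At the fourth site it was 1.09 and 0.92 in germline and 0.64 and 0.70 in cyst preparations, called in both (0.92, adjusted p = 0.00428, and 0.65, adjusted p = 0.0266). The order of the tumour types was opposite at these neighbouring sites, and neither difference was called. The first site, the annotated upstream end, had -0.38 and -0.36 against 0.09 and -0.16, so a reading of the upstream end alone would miss the mark. The second site was too thin to read, with 0 to 14 IP fragments per preparation. H3K9me3 at the third site was -1.38 and -0.83 in germline and -0.82 and -1.18 in cyst preparations.

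Input chromatin itself was lower in germline than in cyst tumours at the start sites of 5 members and at the ligands in none. At the dome start germline inputs had a lowest, median and highest signal of 0.406, 0.735 and 1.04 and cyst inputs of 1.04, 1.17 and 1.40 (7 each), a difference of -0.74 ± 0.16 (adjusted p = 0.00427 by limma); the ranges met without overlap. At hop they were 0.561, 0.784 and 1.00 against 1.01, 1.25 and 2.07 (-0.67, adjusted p = 0.00352), without overlap. At the first Stat92E site they were 1.03, 1.22 and 2.02 against 1.86, 2.12 and 2.88 (-0.75, adjusted p = 0.00298), with overlap in 1 germline input. Both downstream Ptp61F sites (-0.69 and -0.51) and ken (-0.49) were called too, and Socs36E was not (-0.34, adjusted p = 0.067). These 6 of 15 sites compare with a background of 28% of 18652 sites. How many of all sites had inputs without overlap was not counted. The ligand starts had medians of 0.400 and 0.358 at upd1, 0.308 and 0.288 at upd2 and 0.442 and 0.443 at upd3, with differences of -0.04, 0.02 and -0.09.

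Over gene bodies 5 members were called lower in germline inputs: hop (-0.38), dome (-0.29), ken (-0.28), Socs36E (-0.26) and Stat92E (-0.22), where the background was 17.6% of 13690 bodies. The ligand bodies differed by 0.00 for upd1, 0.02 for upd2 and 0.00 for upd3. The median of all start sites was itself -0.22 and that of all bodies -0.11, and edgeR, which scales by TMM, called 1199 sites higher and 944 lower in germline inputs; with each chromosome centred, dome was at -0.46, hop at -0.39, the first Stat92E site at -0.56 and ken at -0.30, and only Stat92E was called at a start site. With flow cell as a block, or without the H3K4me3 inputs, 0 start sites of members were called; edgeR called 3 genes.

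Other genes of the pathway were called for H3K4me3 in both tumour types. Of 6 regulators with 11 start sites, 5 sites in 3 genes were called above input in germline and 7 sites in 6 genes in cyst tumours, where 19.3% and 25.7% of all sites were, with medians of 0.49 and 0.64. Su(var)2-10, which encodes the PIAS protein that restrains Stat92E, was highest, at 1.41 in germline (adjusted p = 0.000271) and 1.53 in cyst tumours (adjusted p = 5.65e-05 by limma). Socs16D, another SOCS gene, had 0.90 and 1.21, and asrij was called as well. Called in cyst tumours alone were et, a short receptor that damps the pathway (0.60), Socs44A (0.79) and wdp (0.64). The largest differences between tumour types were -0.75 for et (adjusted p = 0.482) and -0.48 for wdp, and 0 were called; germline was lower at 9 of 11 sites, with a median of -0.21 where that of all sites was -0.06.

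Of 17 start sites of 9 further targets, 6 were called above and 1 below input in germline tumours and 7 above in cyst tumours. Of all sites, 19.3% and 25.7% were above input, and 789 of 18634 were below input in germline tumours. The medians of the targets were 0.16 in both tumour types, where those of all sites were 0.20 and 0.24. The transcription factor genes eve (0.93 and 0.94), apt (1.12 and 0.91 at its first site) and slbo (0.85 and 0.69) were called in both. The zinc finger gene zfh1, which keeps cyst stem cells in self-renewal, was called at its first site in germline (0.86) and at its second in cyst tumours (0.84). The other stem cell factor, chinmo, was called in cyst tumours (0.72), and Tep1, a complement-like gene, was below input in germline tumours (-1.04). Their largest differences were -0.84 for a site of apt (adjusted p = 0.436) and -0.83 for Tep1 (adjusted p = 0.432 by limma), with 0 called and 4 of 17 at an unadjusted p under 0.05, where 9.43% of all sites passed. For H3K27me3 and H3K9me3 over gene bodies 0 genes of either list were called; the largest differences in H3K27me3 were 0.53 for asrij and -0.41 for et among regulators and -0.79 for eve and 0.41 for slbo among targets. In H3K9me3 they were 0.24 for asrij, -0.16 for et, 0.23 for TotA and 0.22 for zfh1.

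At start sites H3K9me3 was higher in germline than in cyst tumours at the second site of zfh1 (0.84, adjusted p = 0.0386) and the third of apt (0.90, adjusted p = 0.0376 by limma), 2 of 17 target sites against the background of 3.3%. Of 619 sites called in the genome for that difference 615 had this direction, and 0 were called without germline preparation 2, cyst preparation 1 or cyst preparation 2. The genes whose values over all 14 preparations lay nearest to those of Socs36E, by Euclidean distance among 13644 genes, were snama (0.48), NAT1 (0.50) and Ho (0.50), where the median distance was 2.08.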

How the data were processed

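Members, gene lists and tests were chosen with earlier results of these data known. The authors deposited 1 coverage signal per library in windows of 40 bp with a step of 20 bp, per the file headers; the submitters' processing notes name Bowtie2 2.4.5 and dm6. The signal values were whole multiples of 1 step per library, so fragments were recovered, and the signal has an autosomal median of 1. Chromosome ends equalled Release 6, whose annotation gave genes and sequences.

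H3K4me3 was summed within 500 bp of start sites, H3K27me3 and H3K9me3 over gene bodies and, added after the data were seen, at start sites. Features that averaged at least 10 fragments in each mark's libraries were tested in limma 3.58.1 (R 4.3.3), with a trend, on log2(signal + 0.1), which understates changes of low values. All libraries of 1 mark entered 1 fit, and all 14 inputs another. The plan's test for a scaled signal, limma, was kept; edgeR 4.0.16 on recovered fragments was an alternative. Calls need an adjusted p (Benjamini-Hochberg) under 0.05 and, for IP over input, a fold over 1.5. Ratios per preparation add 1 fragment to each count. Single values were compared by exact two-sided permutation tests.

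Input and IP of the same number are the same chromatin, per the labels' protocols; their deviations from group means correlated at 0.04 and 0.00 for H3K4me3, -0.14 and 0.14 for H3K9me3, and -0.09 to 0.33 for H3K27me3. The text names all members, and of the other lists those called and up to 2 per mark with the largest difference. Simulated counts had 200 features changed by 2 on the log2 scale, a change larger than any member difference limma gave. There limma called 98.5% for H3K4me3 at start sites, and 95% for H3K27me3 and 100% for H3K9me3 over gene bodies. The simulated libraries differed only in depth, drawn counts and the planted change, and the 200 features changed together. The percentages therefore do not give the chance of calling a single changed member in the real data. Start sites were not simulated for H3K27me3 and H3K9me3. The genes nearest to Socs36E were taken over H3K4me3 at the first start site and the other marks over bodies.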

Additional observations from a re-analysis of the deposited data

Results flagged for a closer look

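Of 48 sets of 7 inputs of 1 tumour type at 1 window of a member, 5 held an input far from the other 6; chance gives about 1 in 20 sets. The upd1 body had 0.354 in the cyst input of H3K27me3 preparation 1, where the others had 0.515 to 0.605. The hop start had 2.07 in the cyst input of H3K4me3 preparation 2 (others 1.01 to 1.34), and the first Stat92E start had 2.02 in the germline input of H3K27me3 preparation 1 (others 1.03 to 1.38). The second Ptp61F start had 0.563 in the germline input of H3K27me3 preparation 2 (others 0.184 to 0.319), and the fourth had 1.16 in the cyst input of H3K27me3 preparation 2 (others 1.61 to 1.94). H3K9me3 at the ken start differed between the tumour types by 1.13 on the log2 scale, by limma's test of that difference.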

How the results depend on the processing

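Among 24 called member values and their 216 alternatives, 158 stayed called, 58 did not and 0 changed direction. With H3K4me3 over gene bodies, 1 gene was called in germline and 2 in cyst tumours, where 2961 and 3550 of 13658 bodies were called. At start sites the counts fell without a preparation of the same tumour type. The cause of these and the following changes was not tested, beyond fewer samples where one was left out. H3K27me3 over bodies called 0 members in every alternative. At start sites, leaving out a preparation gave 0 to 1 genes in germline and 0 to 4 in cyst tumours. Of all 18607 sites it gave 0 to 487 and 0 to 1589. The cyst count was 1 with a pseudocount of 0.5, 1 with edgeR and 3 with the replicate block. There 723, 881 and 763 of all sites were called. H3K9me3 over bodies called 1 gene in germline and 2 in cyst tumours with TMM or edgeR. Of 13705 bodies, TMM called 222 and 705 and edgeR 247 and 715. Start sites gave 4, 7 and, for the difference, 1, where 1192, 5033 and 619 of 18659 sites were called. With a pseudocount of 0.5, they gave 2 in germline and 4 in cyst tumours, where 175 and 2510 of all sites were called. The difference called 2 with edgeR (ken and upd2), where 534 of all sites were called. Leaving out a preparation lowered the H3K9me3 start-site counts in some fits. The replicate block kept the ken difference at 1.13 (adjusted p = 0.0362 by limma) and, beside the H3K27me3 count, ended 1 call, that of hop in germline H3K9me3. Input calls over bodies fell from 5 genes to 2 with edgeR. They fell to 0 with a flow cell block, centred chromosomes, or without the H3K4me3 or H3K9me3 inputs. Of all 13690 bodies, 2532 were called in the main fit, and 2254, 42, 478, 34 and 80 in these alternatives, in that order. Start-site calls fell from 5 to 3, 0 and 1, and to 0 without the H3K4me3 inputs. The upd1 exon ratio in germline inputs was 0.0801 against the 5 kb flanks, 0.96 in IP libraries and 1.07 for 3′ UTR over coding; in cyst inputs it was 1.39 for the last. Its difference changed sign to 0.00714 with flanks, 0.16 with coding exons, 0.11 in IP libraries, 0.20 without H3K27me3 inputs and 0.0141 within flow cells. The H3K27me3 difference over the ligand locus became -0.0142 with 20 kb added, and -0.14 to 0.19 leaving out a preparation. Start-site windows for H3K27me3 and H3K9me3, the motif windows and the 3′ UTR ratio were chosen after seeing the data.

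Thin counts limit the H3K27me3 values: germline preparation 1 held the fewest fragments, and the ligand starts had as few as 3 input fragments. With 2 or 3 preparations, no exact test of a mark can go below 0.05.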
